A study of Homo sapiens with 2 samples.

Results

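The chemokines described here were 9 leukocyte-attracting genes, CCL2, CCL5, CCL20, CCL28, CX3CL1, CXCL10, CXCL11, CXCL14 and CXCL16, out of 56638 genes in the deposited tables. They were picked by symbol from a gene family whose values in these libraries were already known, so their levels and ratios are a description and support nothing beyond themselves. RNA came from TFK1, an established human cholangiocarcinoma (CCA) cell line, with 1 library from cells carrying a negative control shRNA (shNC) and 1 from cells carrying a shRNA against MBD2 (shMBD2). No other treatment of either is named in the labels, and per the methods of the study the shRNAs were delivered by lentivirus from plko.1 with drug selection. The labels do not say which of the study's shRNAs against MBD2 was sequenced. Since each condition was sequenced once, differences could not be checked against replicates and no test between conditions was possible. The 95% intervals given are exact and cover counting error only. Because these are bulk libraries, more cells expressing a gene and more RNA per cell cannot be told apart.

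Chemokines are small secreted proteins that guide leukocytes along a concentration gradient by binding G protein-coupled receptors on those cells. They are grouped by the spacing of the first cysteines into the CC (CCL), CXC (CXCL) and CX3C (CX3CL1) classes. Epithelial cells, bile duct cells among them, release several of them when inflamed, and transcription of many is driven by NF-kB, while CXCL10 and CXCL11 also respond to interferon. CX3CL1 and CXCL16 differ from the rest in being made as membrane-anchored proteins, which the proteases ADAM10 and ADAM17 can shed. The study asked which genes MBD2, a reader of methylated CpG sites, regulates in CCA cells.

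Promoter sequence is shown for CCL20 and CXCL10, whose counting intervals lay wholly above a log2FC of 1, for CXCL11, which lies next to CXCL10, and for CXCL14. The last 2 had 2 counts or fewer in each library, so no difference between conditions was detectable for them. RefSeq promoter windows on GRCh38.p14 (250 bases before to 50 after a start) were at hand for 5 of the 9 genes, namely CCL20, CCL28, CXCL10, CXCL11 and CXCL14. The 250 bases before the start are printed 5′ to 3′ on the gene's own strand. Capitals mark matches, on either strand, to the NF-kB consensus, to the interferon response core (GAAA, any 2 bases, GAAA) and to the STAT site TTCNNNGAA. They lie at chr2:227813592-227813841 on the plus strand for CCL20, and on the minus strand at chr4:76023498-76023747 for CXCL10, chr4:76036071-76036320 for CXCL11 and chr5:135578992-135579241 for CXCL14.
CCL20: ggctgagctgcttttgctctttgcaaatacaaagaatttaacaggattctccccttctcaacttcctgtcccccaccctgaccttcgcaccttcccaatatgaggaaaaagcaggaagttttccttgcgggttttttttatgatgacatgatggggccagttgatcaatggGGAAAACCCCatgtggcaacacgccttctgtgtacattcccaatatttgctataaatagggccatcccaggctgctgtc
CXCL10: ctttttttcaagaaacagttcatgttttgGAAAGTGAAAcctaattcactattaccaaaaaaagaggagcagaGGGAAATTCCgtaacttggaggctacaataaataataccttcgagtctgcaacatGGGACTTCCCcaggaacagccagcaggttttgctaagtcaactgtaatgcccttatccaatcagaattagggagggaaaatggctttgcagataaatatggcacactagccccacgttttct
CXCL11: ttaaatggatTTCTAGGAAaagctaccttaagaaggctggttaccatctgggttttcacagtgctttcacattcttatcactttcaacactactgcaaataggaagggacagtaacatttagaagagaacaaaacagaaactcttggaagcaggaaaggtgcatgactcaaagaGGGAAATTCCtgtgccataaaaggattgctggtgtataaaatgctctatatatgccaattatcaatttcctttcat
CXCL14: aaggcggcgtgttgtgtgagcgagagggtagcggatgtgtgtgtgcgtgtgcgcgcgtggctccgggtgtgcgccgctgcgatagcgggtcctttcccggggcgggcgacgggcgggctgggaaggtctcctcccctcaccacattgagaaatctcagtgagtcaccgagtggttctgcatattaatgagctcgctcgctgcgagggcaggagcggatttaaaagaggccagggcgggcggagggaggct

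The NF-kB consensus matched in the windows of CCL20, CXCL10 and CXCL11, and was not found in those of CXCL14 and CCL28. It is found in 11.3% of all 35116 windows. In CCL20 it was GGGGTTTTCC on the minus strand at bases -79 to -70. CXCL10 held GGGAAATTCC at -177 to -168 and GGGACTTCCC at -122 to -113, of which the latter also matched on the minus strand. CXCL11 held GGGAAATTCC at -76 to -67. The interferon response core, present in 3.57% of all windows, occurred in CXCL10 alone among these genes, as GAAAGTGAAA at -221 to -212. The site TTCNNNGAA, present in 7.66% of windows and equal to its own reverse complement, occurred in CXCL11 alone, at -240 to -232 and at 19 to 27 after the start. No match to one motif overlapped a match to another. These matches are of letters only, and binding was not measured here.

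The same windows differed in CpG number, which is of interest for a protein that binds methylated CpG. CCL20 and CXCL10 had 3 CpG sites each in 300 bases and CXCL11 had 0, against a median of 14 over all windows. Of all windows, 24.5% had 3 or fewer. CXCL14 had 31 CpG sites, more than 79.3% of all windows. One window of CCL28 held 3 and the other 24. Methylation was not measured in these libraries.

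The libraries held 14728814 counts in shMBD2 and 14467406 in shNC. MBD2 itself had 365 and 1013 counts, a log2FC of -1.48 (interval -1.66 to -1.31). Here log2FC is the log2 ratio of shMBD2 over shNC after TMM scaling with a prior of 0.5 counts, for genes with at least 10 counts over both libraries. Of 17545 such genes, 5.48% had a log2FC above 1 and 5.07% had one below -1, and the median was -0.0082. All 9 biliary epithelial markers examined had at least 10 counts, from 9.04 TPM for KRT19 to 3890 TPM for KRT8 in shNC.

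Of the 9 chemokines, 5 were higher in shMBD2 with a log2FC above 1 (CCL20, CX3CL1, CCL2, CXCL10 and CCL5), 2 lay within a log2FC of 1 (CCL28 and CXCL16), and CXCL11 and CXCL14 had too few counts for a ratio. For all 5 of the higher genes the whole counting interval lay above 1, which was so for 1.37% of all genes. In shNC, 6 of the 9 had 3 or fewer counts, and in shMBD2 2 did. The median log2FC of the 7 genes with at least 10 counts was 4.52, or 3.87 when the genes at 3 or fewer counts in shNC were placed at the ratio against 3 counts. Since the genes were chosen with these values known, the counts are set beside the shares of all genes as a description only.

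**Figure D1:**
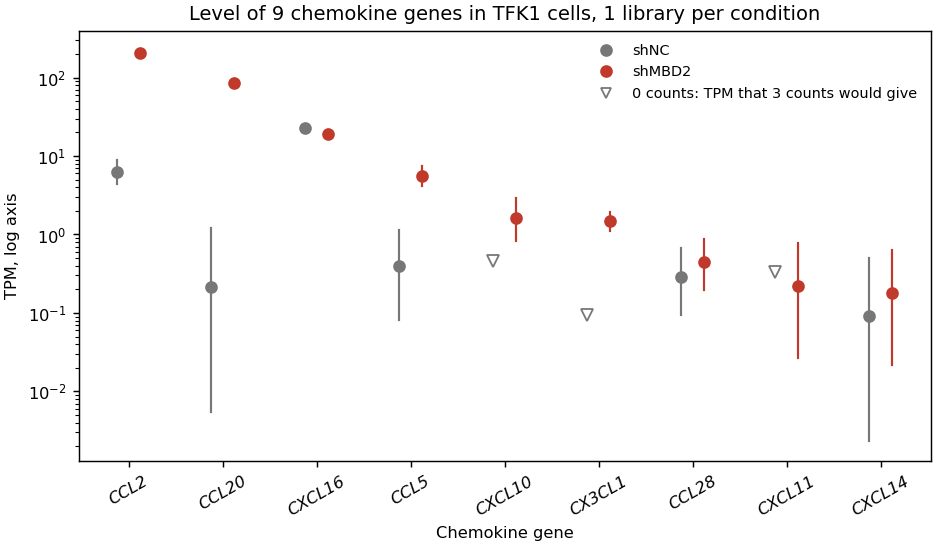
Level in TPM (log axis) of the 9 chemokine genes in shNC (grey) and shMBD2 (red), ordered by the level in shMBD2, with exact Poisson intervals of the counts as lines. Open triangles stand for 0 counts in shNC, drawn at the TPM that 3 counts would give. CCL2 and CCL20 stand at 207 and 86 TPM in shMBD2, and CXCL16 is the gene whose points lie closest together among those above 10 TPM.

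CCL2 and CCL20 made up most of the chemokine transcripts of this group after knockdown. CCL2 (ENSG00000108691, chr17:34255218-34257203 in GRCh38, plus strand) attracts monocytes through CCR2. It had 35 counts in shNC and 1180 in shMBD2, or 6.31 and 207 TPM. This was 33.5-fold higher, with an interval from 24.0 to 48.3. CCL2 was the one of the 5 higher genes that had over 3 counts in shNC, so its ratio does not rest on a floor.

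CCL20 (ENSG00000115009, chr2:227805739-227817564, plus strand) is the ligand of CCR6 and draws dendritic cells, Th17 cells and B cells to epithelia. It had 1 count in shNC and 408 in shMBD2, or 0.216 and 85.9 TPM. The ratio of 405-fold rests on that 1 count, with an interval from 72.4 to 16055, and against the floor of 3 counts it was 135-fold. The interval began above the upper limit of 48.3-fold for CCL2. By log2FC it stood at rank 2 of the 17545 genes, and also at rank 2 of the 10917 genes that reached 100 counts in either library. The interval of CCL20 began at a log2FC of 6.18, below the 6.79 of CXCL8 at rank 3 of those 10917 genes, so counting error leaves that order unsettled. CCL2 stood at rank 19 of the 17545 genes and at rank 7 of the 10917.

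CCL5 (chr17:35871491-35880793, minus strand), which attracts T cells, monocytes and eosinophils through CCR1 and CCR3 among others, was higher from a low base. It had 3 counts in shNC and 44 in shMBD2, or 0.394 and 5.64 TPM. The ratio was 14.6-fold with an interval from 4.67 to 73.4. CCL28 (ENSG00000151882, chr5:43376645-43412391, minus strand), a mucosal chemokine that acts on CCR10 and CCR3, had 5 counts in shNC and 8 in shMBD2. The log2FC was 0.62 (interval -1.12 to 2.63), so at this depth neither a higher nor a lower level was detectable.

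CX3CL1 (ENSG00000006210, chr16:57372458-57385048, plus strand), or fractalkine, binds CX3CR1 on monocytes, NK cells and T cells, and in its membrane form also holds cells in place. It had 0 counts in shNC and 49 in shMBD2. Set against a floor of 3 counts, or 0.0929 TPM, it was at least 16.2-fold higher, and the counting interval, which allows for error in both libraries, began at 12.7-fold. Its level in shMBD2 was 1.48 TPM. CXCL16 (ENSG00000161921, chr17:4733526-4739922, minus strand), the other membrane-anchored chemokine and the ligand of CXCR6, had 282 counts in shNC and 242 in shMBD2. Its TPM were 22.8 and 19.0, a log2FC of -0.23 with an interval from -0.48 to 0.023 that takes in 0. The anchored chemokines thus differed, with CX3CL1 higher and CXCL16 within counting error of no difference. MED11 overlaps CXCL16 on the opposite strand, with 90 counts in shNC and 81 in shMBD2, and reads of both could be mixed if the counting ignored strand, which the sources used here do not state.

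CXCL10 (ENSG00000169245, chr4:76021117-76023497, minus strand) and CXCL11 (ENSG00000169248, chr4:76033682-76041415, minus strand) attract activated T cells and NK cells through CXCR3. CXCL10 had 0 counts in shNC and 11 in shMBD2, or 0 and 1.64 TPM. Against the floor of 3 counts this was at least 3.64-fold higher, with a counting interval that began at 2.49-fold. CXCL11 had 0 and 2 counts. As both of its libraries were at 3 counts or fewer, no ratio is given. CXCL14 (ENSG00000145824, chr5:135570679-135579279, minus strand), a chemokine of epithelia for which no receptor is generally agreed, had 1 count in shNC and 2 in shMBD2, again without a ratio.

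**Figure D2:**
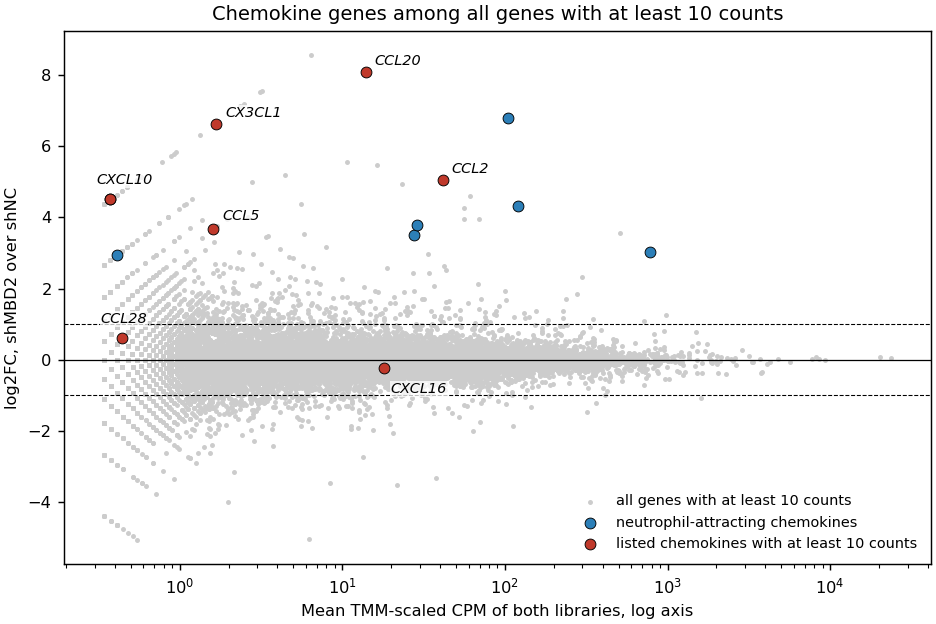
Log2FC of shMBD2 over shNC against the mean TMM-scaled CPM (log axis) for all 17545 genes with at least 10 counts (grey), with the 7 listed chemokines that reached 10 counts in red and the neutrophil-attracting chemokines in blue. Dashed lines mark -1 and 1, CXCL10 covers CXCL6, which has the same counts, and values of genes at 0 counts in shNC depend on the prior count.

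In TPM, which is per length and allows genes to be ranked within a library, the order of the group differed between the libraries. In shNC, CXCL16 came first with 22.8 TPM (interval 20.2 to 25.6) and CCL2 next with 6.31 TPM (4.39 to 8.77). The other 7 genes were at 0.394 TPM or below and did not differ from each other beyond counting error. In shMBD2, CCL2 came first with 207 TPM (196 to 219), then CCL20 with 85.9 TPM (77.7 to 94.6), CXCL16 with 19.0 TPM (16.7 to 21.6) and CCL5 with 5.64 TPM (4.10 to 7.57). CXCL10 and CX3CL1, at 1.64 TPM (0.819 to 2.93) and 1.48 TPM (1.09 to 1.95), did not differ beyond counting error, and the interval of CXCL10 also met that of CCL28 (0.193 to 0.882). Neither did CCL28, CXCL11 and CXCL14, between 0.177 and 0.448 TPM.

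The summed TPM of the 9 genes was 30.1 in shNC and 322 in shMBD2, a ratio of 10.7. CXCL16 made up 75.7% of the sum in shNC and 5.92% in shMBD2, while CCL2 went from 21.0% to 64.4% and CCL20 from 0.718% to 26.7%. Without CXCL16 the sums were 7.29 and 303 TPM. When TMM-scaled counts were summed in place of TPM, the ratio was 5.91.

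**Figure D3:**
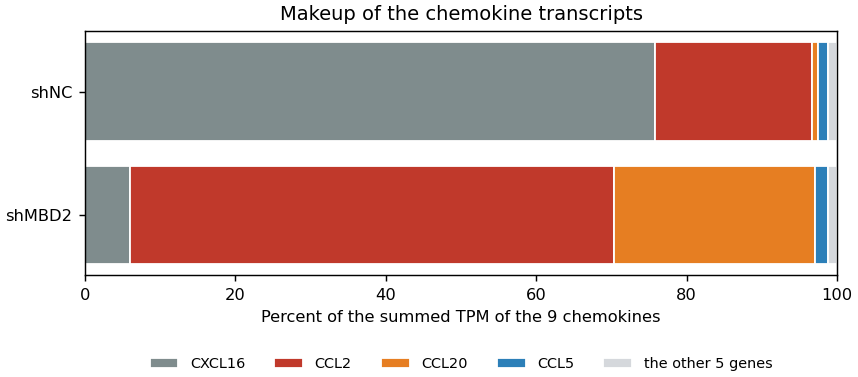
Shares of the summed TPM of the 9 chemokines, as percent, in shNC (top) and shMBD2 (bottom). CXCL16, CCL2, CCL20 and CCL5 are drawn singly and the remaining genes together. CXCL16 takes 75.7% of the bar in shNC and 5.92% in shMBD2, where CCL2 and CCL20 together take 91.1%.

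Set within all 48 chemokine ligand genes examined, the 9 genes held a similar share of the total in both libraries, 11.8% of 255 TPM in shNC and 11.5% of 2786 TPM in shMBD2. The 7 neutrophil-attracting ligands, which share ELR before the first cysteine and act on CXCR2, held 87.4% and 88.2%. CXCL5 alone held 69.5% and 50.7%. All 7 of these ligands had a log2FC above 1, beside 5.48% of all genes. Their median was 3.80 (3.50 with genes at the floor set against 3 counts). For 6 of them the whole counting interval lay above 1, beside 1.37% of all genes, while that of PPBP began at 0.67. The other 32 ligands were nearly silent, with 27 at 0 counts in both libraries. CCL26, an eosinophil chemokine, was the sole one of them to reach 10 counts over both libraries, with 7 in shNC and 16 in shMBD2 (log2FC 1.13, interval -0.18 to 2.71). CCL4 and CCL24, outside the naming rule and picked after their values were seen, had 0 counts in shNC and 8 and 4 in shMBD2. CCL4 has near-identical copies, CCL4L1 and CCL4L2, so its count is uncertain. CXCL9, which shares CXCR3 with CXCL10 and CXCL11, had 0 counts in both libraries.

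Several of the 9 genes lie among other chemokine genes, and those neighbors were largely at 0. Within 100 kb of CCL2 the tables list 10 genes, CCL7, CCL11 and CCL8 among them, and all 10 had 0 counts in both libraries. CXCL9, CXCL10 and CXCL11 form a cluster on chromosome 4, and next to them SDAD1 had 385 counts in shNC and 416 in shMBD2 (log2FC 0.10). CCL22 and CCL17, which flank CX3CL1, had 0 counts, and beyond them CIAPIN1 had 799 and 923 counts (log2FC 0.20). Over all 9 loci, 75 neighbors that are not themselves in the list were found. Of the 29 with at least 10 counts, 0 had a log2FC above 1, beside 5.48% of all genes, and 3 had one below -1 (GLTPD2, VMO1 and EEF1A1P19), beside 5.07% of all genes. The interval of VMO1, from -3.23 to 0.19, took in 0, and EEF1A1P19 had 9 counts in shNC and 1 in shMBD2.

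**Figure D4:**
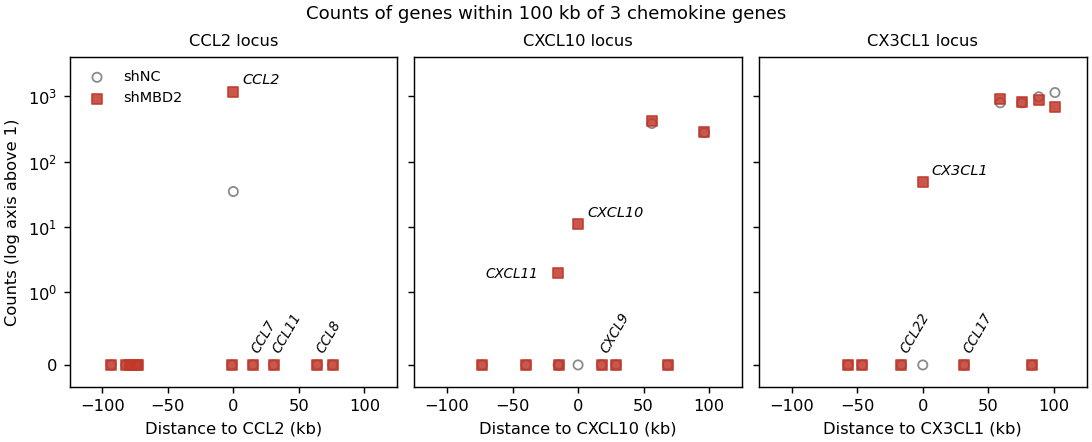
Counts in shNC (open circles) and shMBD2 (squares), on an axis that is logarithmic above 1, of every gene within 100 kb of CCL2, CXCL10 and CX3CL1, against the distance between gene midpoints in kb, with positive values downstream. In all 3 panels the named chemokine is higher in shMBD2, and CCL7, CCL8, CCL11, CCL17, CCL22 and CXCL9 lie at 0 in both libraries.

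The receptors that these ligands signal through had few counts in TFK1. Of the 8 receptors CCR1, CCR2, CCR3, CCR6, CCR10, CX3CR1, CXCR3 and CXCR6, 7 had 3 or fewer counts in both libraries. CCR6, the receptor of CCL20, had 3 counts in shNC and 0 in shMBD2. CCR10 was the exception, with 8 and 11 counts (log2FC 0.43, interval -0.998 to 1.97). Among the 17 typical chemokine receptors examined, CCR7 had the most, with 85 and 77 counts (log2FC -0.15, interval -0.61 to 0.31). CCR7 and CCR10 were the 2 receptors with at least 10 counts over both libraries, and for the rest no ratio is given. Of the 5 decoy or atypical receptors, which take up ligands without the usual signaling, ACKR3, a receptor for CXCL11, had 28 counts in shNC and 33 in shMBD2 (log2FC 0.22). ACKR4, which takes up CCL19 and CCL21 among others, had 7 and 6.

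Enzymes that release or trim these ligands were also examined. The list held 6 such genes, of which 5 reached 10 counts over both libraries. Of these 5, 0 lay above a log2FC of 1, beside 5.48% of all genes, and 0 below -1, beside 5.07%. With shares that low, 0 of 5 does not set the enzymes apart from other genes. The middle log2FC of the 5 was 0.084. ADAM10, which sheds CX3CL1 and CXCL16 constitutively, had 5860 counts in shNC and 3981 in shMBD2 (log2FC -0.57, interval -0.63 to -0.51). ADAM17, which sheds CX3CL1 on stimulation, had 1460 and 1557 (log2FC 0.084, interval -0.020 to 0.19). RHBDF2, an iRhom that brings ADAM17 to the cell surface, had 714 and 1179 counts (log2FC 0.71, interval 0.58 to 0.85). DPP4, which trims the amino terminus of CXCL10, CXCL11 and CCL5, had 26 and 25 counts (log2FC -0.064). TIMP3, an inhibitor of ADAM17, had 0 counts in both.

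Of the 9 NF-kB and IKK genes, 4 had a log2FC above 1, beside 5.48% of all genes, 0 had one below -1, beside 5.07%, and the median was 0.32. RELB, the subunit of the non-canonical pathway, had 79 counts in shNC and 473 in shMBD2, a log2FC of 2.57 (interval 2.23 to 2.94). NFKB2, its usual partner, was at 1.59, NFKBIA, the inhibitor that NF-kB itself induces, at 1.36, and NFKB1 at 1.17. RELA was at 0.27, and the kinases CHUK and IKBKB were at 0.10 and -0.29.

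CXCL10 and CXCL11 can be induced through the interferon arm. Of its 17 genes examined, 12 had at least 10 counts and the median was 0.098. A log2FC above 1 was found for 1 of the 12, a share near the 5.48% of all genes. The 1 gene was IFNGR1, a chain of the interferon gamma receptor, with 604 counts in shNC and 2340 in shMBD2 (log2FC 1.94, interval 1.82 to 2.08). IRF1 was at 0.80 and IRF9 at 0.082. The ligands IFNG, IFNB1 and IFNL3 had 0 counts in both libraries, and IFNL1 and IFNL2 had 1 count at most.

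Cytokines known to induce CCL2 and CCL20, and receptors for them, made up a list of 11 genes. Of the 8 with at least 10 counts, 4 had a log2FC above 1, beside 5.48% of all genes, and these were TNF, LTB, IL1A and IL1B. TNF had 0 counts in shNC and 27 in shMBD2, at least 8.94-fold higher against the floor of 3 counts, with a counting interval that began at 6.79-fold. LTB had 4 and 73 counts, a ratio of 18.1 (interval 6.79 to 68.3). IL1A had 7 and 40 counts, a ratio of 5.68 (interval 2.52 to 15.02). IL1B had 1 and 24 counts. Its ratio of 23.9 rests on that 1 count, with an interval from 3.89 to 981, and against the floor of 3 counts it was 7.95-fold. IL17A, IL17C and LTA had 0 counts in both. The receptors in the list, IL1R1, TNFRSF1A, IL17RA and IL17RC, lay within a log2FC of 1. They ran from -0.70 for IL1R1 to -0.094 for IL17RA, with TNFRSF1A at -0.098. Other receptors of these cytokines, that of LTB among them, were not examined.

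**Figure D5:**
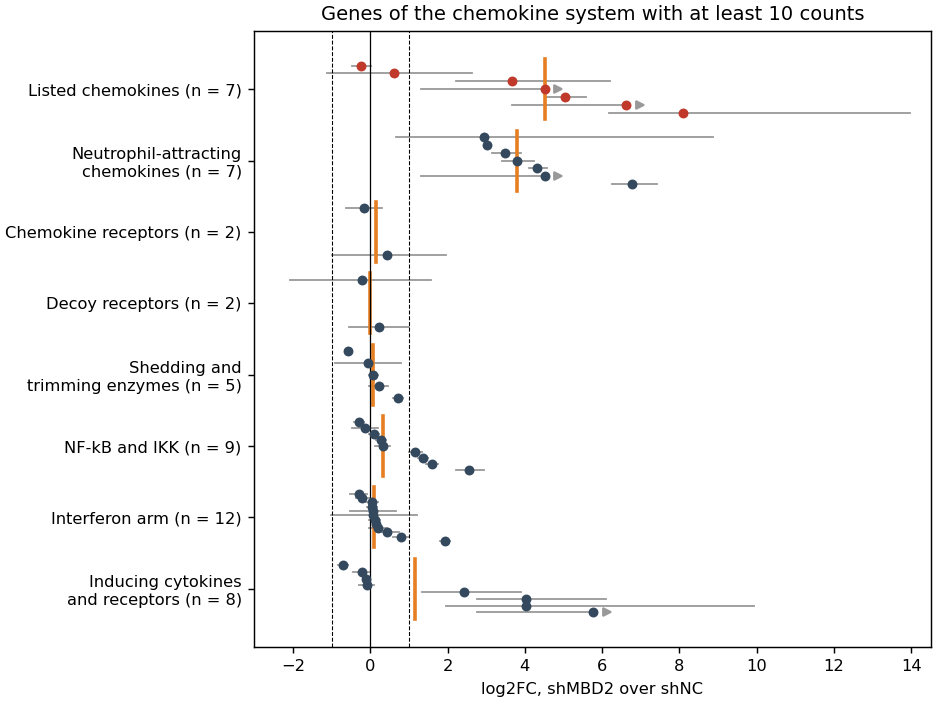
Log2FC of shMBD2 over shNC for the genes with at least 10 counts in each list of the chemokine system, with 95% counting intervals as grey lines, arrowheads where the upper end is not bounded and the list median as an orange bar. The medians are 4.52 for the listed chemokines, 3.80 for the neutrophil-attracting chemokines and 1.17 for the inducing cytokines and receptors. They are 0.32 for the NF-kB and IKK genes, 0.098 for the interferon arm and 0.084 for the shedding and trimming enzymes. Those of the receptors (0.14) and decoy receptors (0.0049) rest on 2 genes each.

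CCL2, CCL5, CX3CL1 and CXCL10 are also made by cells other than epithelium, so markers of such cells were examined. Of 11 leukocyte markers, 8 had under 10 counts over both libraries, and the summed TPM was 5.52 in shNC and 8.05 in shMBD2. Of these 8, PTPRC, CD3E, TYROBP and CD52 had 0 counts in shMBD2 and 1 at most in shNC. In shNC and shMBD2, CSF1R had 3 and 5 counts, CD79A 4 and 3, AIF1 2 and 0, and FCER1G 0 and 1. CORO1A had 19 and 56 counts and LAPTM5 3 and 29. These were the 2 with a log2FC above 1 of the 3 markers with at least 10 counts, beside 5.48% of all genes. The other of the 3, NKG7, had 13 counts in shNC and 7 in shMBD2. Its log2FC was -0.86, with an interval from -2.47 to 0.53 that takes in 0. Of 6 fibroblast markers, COL1A2 had 0 counts in shMBD2 and 6 was the highest count of any in either library, and the 4 endothelial markers had 0 counts in shMBD2. Which cells the CORO1A and LAPTM5 reads came from, and whether such cells had a part in the chemokine values, was not tested.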

How the data were processed

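RNA from 2 TFK1 libraries (shMBD2 and shNC, 1 each) was analyzed. The authors deposited raw read counts for every gene, as whole numbers, and a second table of TPM. The submitters' processing notes name fastp, HISAT2 2.1.0, featureCounts, DESeq 1.18.1 and GRCh38.p13. The gene positions in the tables matched those of GENCODE 29 (GRCh38) for 322 of 52526 shared identifiers, so positions printed come from GENCODE 29, joined by Ensembl identifier, and distances between neighbors from the tables alone. Strandedness of counting is not given in the sources used here.

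Lines without a gene (46 of 63723) were dropped. Rows that repeated a symbol with the same values in both libraries were kept once, leaving 56638 genes. TMM factors came from edgeR 4.0.16 in R 4.3.3, on the 17545 genes with at least 10 counts over both libraries. The log2FC adds a prior of 0.5 counts in proportion to library size. Intervals are exact Clopper-Pearson limits on how the reads of a gene split between the libraries, and exact Poisson limits for TPM, computed with scipy 1.17.1. Reads are not independent molecules, so these cover counting error only. A gene at 0 counts in a library was set against 3 counts as a bound. Replicate variation could not be estimated, so no count test was run. The calculation was tested on simulated counts. Promoter windows came from RefSeq (GRCh38.p14). Protein sequences were not used here.

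The chemokines and the other lists were chosen with earlier results of these data known. The genes named are the 9 chemokines, MBD2, and genes with at least 10 counts in the lists or within 100 kb of a chemokine, chiefly receptors, enzymes and those past a log2FC of 1 or -1. Some genes of the receptor and interferon lists are not reported here. Genes named at fewer counts were named to account for a list. Ranks replace a search for genes with a like pattern, since 2 libraries give 1 ratio per gene. Alternatives were upper-quartile factors, DESeq2 1.42.0 size factors, unscaled totals, prior counts of 2 and 0.1, log2 of TPM plus 0.1 or 1, all deposited rows, and filters of at least 1 or 100 counts.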

Additional observations from a re-analysis of the deposited data

How the results depend on the processing

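The number of listed chemokines above a log2FC of 1 stayed at 5 of 7 under every other scaling, prior count and TPM pseudocount. Of all 17545 genes, from 374 (TPM plus 1) to 966 (DESeq2 size factors) lay above 1 in those settings, against 961 in the main one. With all deposited rows (CCL5 is on 2 rows) it was 6 of 8, beside 1078 of all 20984 rows. With at least 1 count it was 6 of 9, beside 4523 of all 27295 genes. With at least 100 counts, where the filter removed the rest, it was 2 of 3, beside 213 of all 11972 genes. The median log2FC of the listed chemokines, 4.52, lay between 3.19 and 5.06 under these alternatives. The exception was log2 of TPM plus 1, which gave 1.40, since that pseudocount pulls low genes towards 0. The ratio of the summed levels was 5.91 with TMM-scaled counts in place of TPM (10.7), which weights long and short genes differently. Of single chemokines, CCL20 and CX3CL1 left their counting interval with TPM plus 1, at 6.16 and 1.31, and CXCL16 lay between -0.26 and -0.21 throughout. Medians of 4 lists changed sign. The decoy receptors went from 0.0049 to -0.015 with TPM plus 0.1, -0.00016 with a prior of 0.1, -0.011 with total counts and -0.0037 with upper-quartile factors. With at least 100 counts, the receptors went from 0.14 to -0.15 and the inducing cytokines and receptors from 1.17 to -0.16, as the cytokines dropped out. With all deposited rows, the median of the inducing cytokines and receptors rose to 4.04. Then 18 of 22 rows lay above 1, beside 1078 of all 20984 rows, against 4 of 8 genes, since repeated rows each counted. With at least 1 count, the leukocyte markers went from 1.53 to -0.37, as more genes were counted. No paired analysis was possible because a single library stood for either condition. Depth limits what can be said of CCL28, CXCL11 and CXCL14, and variation from culture to culture was not measured.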
